A study of Mus musculus with 10 samples.

Results

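The genes described here are 10 markers of peritubular myoid cells and smooth muscle: Acta2, Myh11, Tagln, Cnn1, Des, Mylk, Tpm1, Tpm2, Myl9 and Thbs2. They were read as every probe set whose platform annotation names 1 of these genes, which gave 21 of the 22690 probe sets, for 10 of the 12393 genes named on the array. All 10 genes kept at least 1 probe set above the filter on dim signals, a mean log2 signal of 4.27 (a signal of 19.3), and 15 of the 21 probe sets passed it. The samples were whole testes of 10 day old mice in 2 groups, SCARKO and control, with 5 arrays each. SCARKO testes lack the androgen response in their Sertoli cells, and the controls carried the AMHCre transgene. Every array held a pool of RNA from 1 testis of each of 3 littermates, and the pools were made as 5 SCARKO and control pairs of the same litters. The AMH promoter drives Cre in Sertoli cells, while the genes described here are used as markers of myoid cells and smooth muscle. Which cells gave their signals in whole testis was not tested.

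Peritubular myoid cells are flat contractile cells that wrap the seminiferous tubule, lay down its basement membrane together with the Sertoli cells, and move sperm and fluid along it. Their contraction uses the smooth muscle machinery: calcium and calmodulin activate the kinase encoded by Mylk, which phosphorylates the regulatory light chain, and phosphorylated myosin then pulls on actin filaments decorated with tropomyosin and calponin. The same genes are active in the smooth muscle of blood vessels, so whole-testis signals can hold both sources. The part of other cells in them was not tested. Myoid cells have an androgen response of their own.

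The 2 labels of an array, its title and its description, disagree on the genotype in pairs 1 to 4, where they are swapped, and concur in pair 5. Groups here follow the titles, and pool numbers are the pair numbers. Across arrays the median signal was 36.8 to 37.6 in SCARKO and 36.4 to 37 in controls. The ratio of 3′ to 5′ signal was 0.618 to 0.657 in SCARKO and 0.611 to 0.64 in controls for Gapdh, and 1.16 to 1.32 in SCARKO and 1.21 to 1.30 in controls for beta-actin. These values are linear signal intensities, so the number of arrays limits the precision, and probe sets of different genes are not compared in level. In whole-testis RNA, fewer cells of a type and less RNA per cell cannot be told apart. All spreads are between pools of littermates.

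Smooth muscle genes share a known promoter element, the CArG box bound by the serum response factor, and the upstream 250 bases of 4 of the genes are shown. Acta2 and Myl9 were picked for fold changes near 0, and Tpm1 and Mylk for a single direction in every pair. No result on expression below uses these sequences. Sequences are from RefSeq on GRCm38.p6, 5′ to 3′ on the strand of the gene and ending just before its start, and 8 of the 10 genes had an entry. Capitals mark CArG boxes on either strand with at most 1 mismatch.
Acta2 (chr19:34255374-34255623, minus strand): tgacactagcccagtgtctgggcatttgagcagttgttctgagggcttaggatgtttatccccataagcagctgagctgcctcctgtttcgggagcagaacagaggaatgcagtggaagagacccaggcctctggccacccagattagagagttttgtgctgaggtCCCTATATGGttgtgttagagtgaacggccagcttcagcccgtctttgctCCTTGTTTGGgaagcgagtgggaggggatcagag
Myl9 (chr2:156775214-156775463, plus strand): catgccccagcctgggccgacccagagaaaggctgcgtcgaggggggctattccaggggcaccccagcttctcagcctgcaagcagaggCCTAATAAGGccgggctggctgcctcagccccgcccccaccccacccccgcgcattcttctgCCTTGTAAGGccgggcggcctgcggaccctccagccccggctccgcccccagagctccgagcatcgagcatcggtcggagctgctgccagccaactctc
Tpm1 (chr9:67049214-67049463, minus strand): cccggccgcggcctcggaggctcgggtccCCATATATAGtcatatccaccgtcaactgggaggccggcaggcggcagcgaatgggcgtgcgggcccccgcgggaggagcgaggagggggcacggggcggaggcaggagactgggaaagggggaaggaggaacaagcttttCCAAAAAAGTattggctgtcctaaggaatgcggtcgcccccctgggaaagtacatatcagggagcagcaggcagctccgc
Mylk (chr16:34784700-34784949, plus strand): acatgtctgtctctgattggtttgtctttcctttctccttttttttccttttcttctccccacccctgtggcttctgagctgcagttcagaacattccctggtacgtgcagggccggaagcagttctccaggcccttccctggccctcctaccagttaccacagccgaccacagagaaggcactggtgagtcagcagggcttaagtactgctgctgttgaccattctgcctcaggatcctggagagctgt
An exact CArG box was found in 1 of the 8 promoters, that of Myl9, and in 1.47% of all 32841 promoter entries of this length. With 1 mismatch allowed it was found in 3 of 8 (Acta2, Myl9 and Tpm1) and in 18.6% of all entries. The steroid receptor half-site AGAACA, on either strand, was found in the promoters of Mylk and Acta2 and in 16.1% of all entries. These are matches of letters in 1 annotated start per gene, and were not tested for binding.

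None of the 10 genes passed the test between SCARKO and control testes, a count near the background. Of the 10 genes, each read by its brightest probe set, limma called 0 at an adjusted p under 0.05, against 5.69% of all 7973 kept genes, and 3 of the 10 had an unadjusted p under 0.05, against 21.7% of all genes. At that rate of calls, 10 genes would hold few or none. Log2 fold changes, SCARKO minus control, ranged from -0.20 for Des to 0.15 for Tpm1. Their median was -0.10, against 0.02 over all kept genes, and 7 of the 10 were negative. Without pair 4 the median was -0.054. Changes past 0.1 in either direction were found for 6 of the 10 genes, against 42.2% of all genes, and median absolute changes were 0.12 for the 10 genes and 0.08 over all genes. No gene of the 10 separated the groups, while 5.26% of all genes did. Mylk and Tpm1 were the 2 genes with 1 direction in all 5 pairs, a pattern found in 19.7% of all genes.

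**Figure D1:**
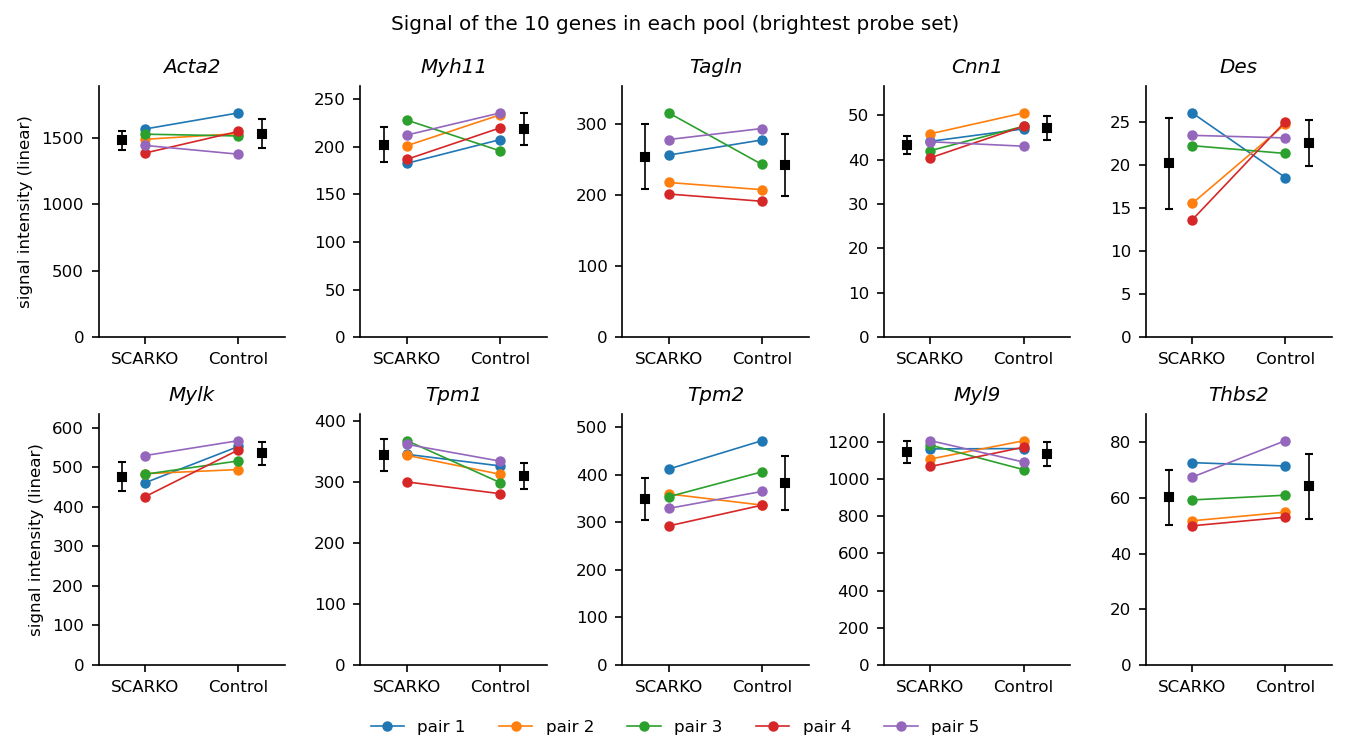
Signal intensity (linear, y axis from 0) of the brightest probe set of each of the 10 genes, with SCARKO pools on the left and control pools on the right of each panel, lines joining the pools of a pair, and squares with bars for the mean ± SD (n = 5). The groups overlap in all 10 panels, and Mylk is lower and Tpm1 higher in SCARKO in each of the 5 pairs.

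Actin and myosin, the motor itself, came first in the order of function. Acta2, which encodes smooth muscle alpha-actin and is the usual marker of myoid cells (gene ID 11475), had signals of 1567.5, 1489.7, 1528.2, 1386.6 and 1443.5 in SCARKO pools 1 to 5, against 1688.3, 1532.8, 1514.7, 1549.1 and 1377.5 in control pools 1 to 5. The groups overlapped over most of their range, with SCARKO lower in 3 of 5 pairs. The log2 fold change was -0.05 (SE 0.04, adjusted p = 0.54 by limma), with a 95% interval of -8.57% to 2.68%. This interval was among the tightest of the 10 genes. A second Acta2 probe set had mean signals of 5.68 ± 2.50 in SCARKO and 3.86 ± 1.39 in controls (SD, n = 5), under the filter, and gives no usable level.

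Myh11, the smooth muscle myosin heavy chain (gene ID 17880), had signals of 182.6, 201.1, 227.9, 186.8 and 212.3 in SCARKO pools 1 to 5, against 207.5, 233.5, 195.6, 219.8 and 235.5 in control pools 1 to 5. SCARKO was lower in 4 of 5 pairs and higher in pair 3, and the ranges overlapped. Its fitted log2 fold change was -0.11 (SE 0.07, limma adjusted p = 0.39), with a 95% interval of -16.7% to 2.71%. Its other probe set stayed under the filter, at 1 to 5 in all 10 pools.

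Myl9, the regulatory light chain that the Mylk kinase phosphorylates (gene ID 98932), had signals of 1162.3, 1108.0, 1182.6, 1067.7 and 1206.6 in SCARKO pools 1 to 5, against 1164.0, 1206.1, 1050.5, 1171.4 and 1091.4 in control pools 1 to 5. Neither group was consistently higher, with SCARKO lower in 3 of 5 pairs. For Myl9 the log2 fold change was 0.01 (SE 0.05, limma adjusted p = 0.92), with a 95% interval of -6.49% to 8.66%, and its sign turned under quantile normalization (-0.01). Myl9 also varied least between litters, the highest pair mean being 1.04 times the lowest.

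Mylk, the myosin light chain kinase that switches contraction on (gene ID 107589), gave the clearest difference among the 10 genes. Its brightest probe set had signals of 460.6, 483.4, 482.0, 425.5 and 529.2 in SCARKO pools 1 to 5, against 552.2, 493.8, 515.6, 543.5 and 566.8 in control pools 1 to 5. SCARKO was lower in every pair, by log2 differences between -0.35 in pair 4 and -0.03 in pair 2, although the ranges of the groups overlapped. The fitted log2 fold change was -0.17 (SE 0.05), with a 95% interval of -0.28 to -0.05, and did not pass at a limma adjusted p of 0.091.

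The second Mylk probe set was the 1 called among the 15 kept probe sets of these genes, against 5.19% of all 13576 kept probe sets, or 3.26% called in the same, lower direction. It had signals of 199.3, 184.1, 190.0, 173.0 and 217.3 in SCARKO pools 1 to 5, against 251.3, 203.2, 209.4, 210.3 and 246.9 in control pools 1 to 5. Every SCARKO pool was below its littermate control, by log2 differences from -0.33 in pair 1 to -0.14 in pair 3. It fell by 13.9% in SCARKO (log2 fold change -0.22, SE 0.05, limma adjusted p = 0.039). The third and dimmest Mylk probe set averaged 27.6 ± 8.34 in SCARKO and 33.4 ± 6.47 in controls (SD, n = 5), with a log2 fold change of -0.29 (SE 0.13, limma adjusted p = 0.22) and SCARKO lower in 3 of 5 pairs. All 3 probe sets had negative values, and they were designed from the same transcript accession, so they are not separate measurements of the gene in other animals. Which Mylk transcript forms they read was not used here. The call was marginal: it ended without pair 1 (adjusted p = 0.13), 3 (0.084), 4 (0.11) or 5 (0.099) without the littermate block (0.19), with dim probe sets included (0.10), without the intensity trend (0.095) and with groups from the descriptions (0.90), and held without pair 2 (0.045).

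**Figure D2:**
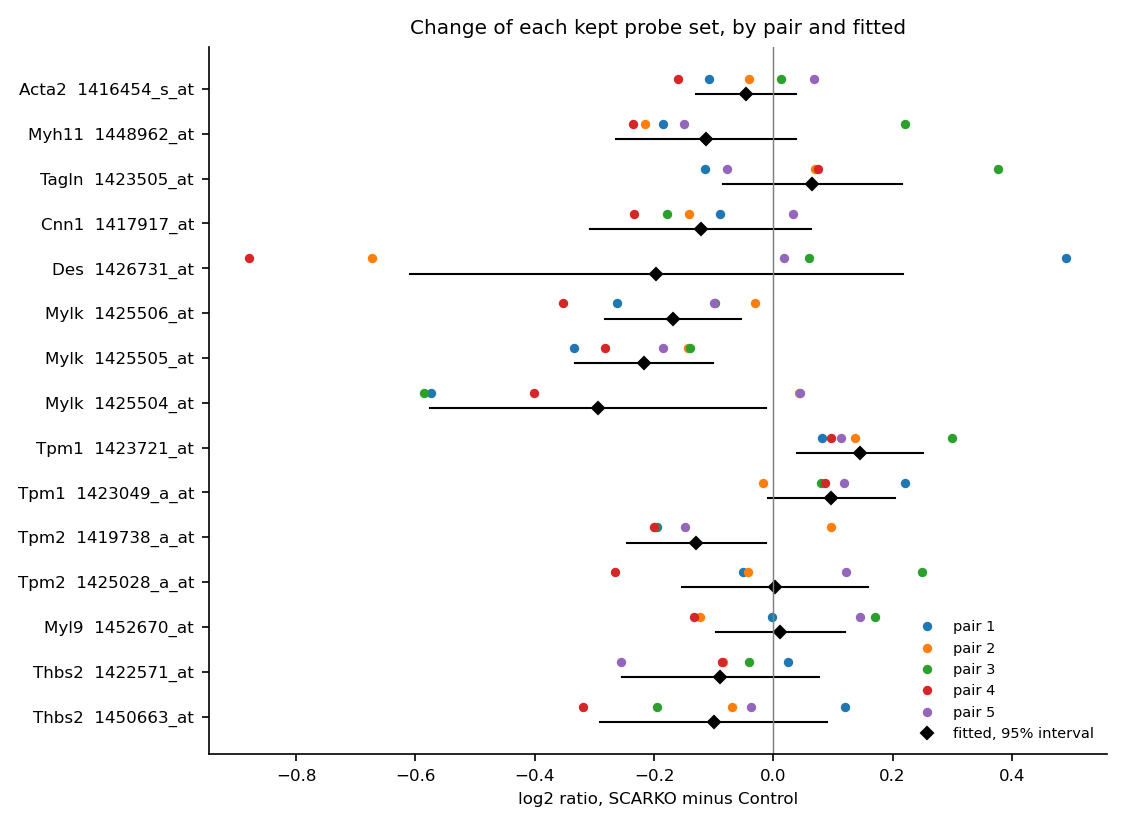
Log2 ratio of SCARKO to control (x axis, SCARKO minus control) for the 15 kept probe sets of the 10 genes, with coloured points for the 5 pairs and black diamonds with bars for the limma value and its 95% interval. The 3 Mylk probe sets lie below 0 and both Tpm1 probe sets above it, while the 2 Tpm2 probe sets differ from each other.

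Tropomyosins, which lie along the actin filament and gate the access of myosin, are encoded here by Tpm1 and Tpm2, and neither gene passed the test. Tpm1 (gene ID 22003) had signals of 345.0, 343.4, 367.4, 299.8 and 361.3 in SCARKO pools 1 to 5, against 326.0, 312.3, 298.6, 280.5 and 333.8 in control pools 1 to 5. SCARKO was higher in each pair, by log2 differences between 0.08 in pair 1 and 0.30 in pair 3, while the ranges overlapped. The log2 fold change was 0.15 (SE 0.05), with a 95% interval of 0.04 to 0.25, and did not pass at a limma adjusted p of 0.11. The other kept Tpm1 probe set averaged 303.5 ± 36.9 in SCARKO and 283.2 ± 28.8 in controls (SD, n = 5; log2 fold change 0.10, SE 0.05, limma adjusted p = 0.29), higher in 4 of 5 pairs. A dim probe set averaged 20.5 ± 5.42 in SCARKO and 15.1 ± 1.52 in controls (SD, n = 5), also higher in 4 of 5 pairs, but its mean lay under the filter.

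Tpm2 (gene ID 22004) had signals of 412.2, 359.8, 354.0, 292.6 and 329.5 in SCARKO pools 1 to 5, against 472.0, 336.4, 406.3, 336.2 and 365.1 in control pools 1 to 5. SCARKO was lower in 4 of 5 pairs and higher in pair 2, and the ranges overlapped. With all pairs the log2 fold change was -0.13 (SE 0.05, limma adjusted p = 0.19), and without pair 2 it was -0.19 and passed at an adjusted p of 0.047. The other kept Tpm2 probe set did not share this direction, averaging 186.0 ± 25.4 in SCARKO and 184.5 ± 13.7 in controls (SD, n = 5; log2 fold change 0.0027, SE 0.07). Both remaining Tpm2 probe sets were under the filter, with mean signals of 15.5 and 10.7 in SCARKO and 12.3 and 8.92 in controls. Tropomyosin genes make several transcripts by alternative splicing, and which of them each probe set reads was not used here.

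Calponin and transgelin bind actin and mark differentiated smooth muscle. Tagln, which encodes transgelin or SM22 alpha (gene ID 21345), had signals of 256.6, 218.0, 316.0, 201.7 and 278.5 in SCARKO pools 1 to 5, against 277.9, 207.8, 243.4, 191.5 and 294.0 in control pools 1 to 5. Pair 4 was lowest and pair 2 next lowest in both groups, and the groups overlapped. The log2 fold change was 0.07 (SE 0.07, limma adjusted p = 0.64), and without pair 3 it was -0.01. Cnn1, calponin 1 (gene ID 12797), had signals of 44.1, 45.8, 42.0, 40.4 and 44.0 in SCARKO pools 1 to 5, against 46.9, 50.5, 47.5, 47.5 and 43.0 in control pools 1 to 5. SCARKO was lower in pairs 1 to 4 and higher in pair 5, and the ranges overlapped, with a log2 fold change of -0.12 (SE 0.08, limma adjusted p = 0.46).

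Des, the muscle intermediate filament protein desmin (gene ID 13346), was measured close to the filter. Its signals were 26.0, 15.5, 22.2, 13.6 and 23.4 in SCARKO pools 1 to 5, against 18.5, 24.7, 21.3, 25 and 23.1 in control pools 1 to 5. Pairs 2 and 4 were lower in SCARKO and pairs 1, 3 and 5 higher. The log2 fold change of -0.20 had an SE of 0.19 (limma adjusted p = 0.60) and a 95% interval from -34.5% to 16.3%. It was -0.37 without pair 1, -0.077 without pair 2 and -0.026 without pair 4. The other Des probe set was under the filter, at 7.10 ± 3.01 in SCARKO and 7.30 ± 2.63 in controls (SD, n = 5).

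Thbs2, thrombospondin 2, is a matricellular protein rather than part of the contractile apparatus (gene ID 21826). Its signals were 72.7, 51.8, 59.3, 50 and 67.5 in SCARKO pools 1 to 5, against 71.5, 54.9, 61.0, 53.1 and 80.6 in control pools 1 to 5. In both groups pairs 4, 2 and 3 were lowest, in that order, and pairs 1 and 5 highest. For Thbs2 the log2 fold change was -0.09 (SE 0.08, limma adjusted p = 0.55), and the second probe set gave -0.10 (SE 0.09, limma adjusted p = 0.55), each lower in 4 of 5 pairs.

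The 10 genes varied with the litter by different amounts. The highest pair mean was 1.46 times the lowest for Tagln, 1.43 times for Thbs2 and 1.41 times for Tpm2, against 1.15 times for Acta2 and Myh11, 1.14 times for Mylk and 1.11 times for Cnn1. The SD between litters on the log2 scale had a median of 0.09 over the 10 genes and 0.10 over all kept genes. The median log2 difference of the 10 genes was -0.10, -0.06, 0.04, -0.18 and -0.03 in pairs 1 to 5, with 7, 7, 4, 8 and 5 genes lower in SCARKO. Pair 3 had a positive median and pair 4 the most negative one, and pair 5, on which both labels name the same genotype, was near 0.

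As a description, the deviations of the 10 genes from their group means were compared over the 10 pools, which share litters in pairs and so are not independent. Of the 45 pairs of genes, 39 had a positive Pearson r, with a median of 0.34 and a range of -0.38 to 0.86, against a median of 0.0020 over all pairs of kept genes. Tagln was most alike to Tpm1 (r = 0.86) and to Thbs2 (r = 0.81), and Acta2 was most alike to Tpm2 (r = 0.70). Pearson r was -0.37 for Cnn1 with Tagln and -0.38 for Myh11 with Tpm2, the lowest of the 45 values. An r over 0.5 was found in 28.9% of the 45 pairs and in 10.5% of all pairs of kept genes. The mean deviation of the 10 genes was lowest in SCARKO pool 4, at -0.21, and the control pool of the same pair was also lowest in its group, at -0.06.

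**Figure D3:**
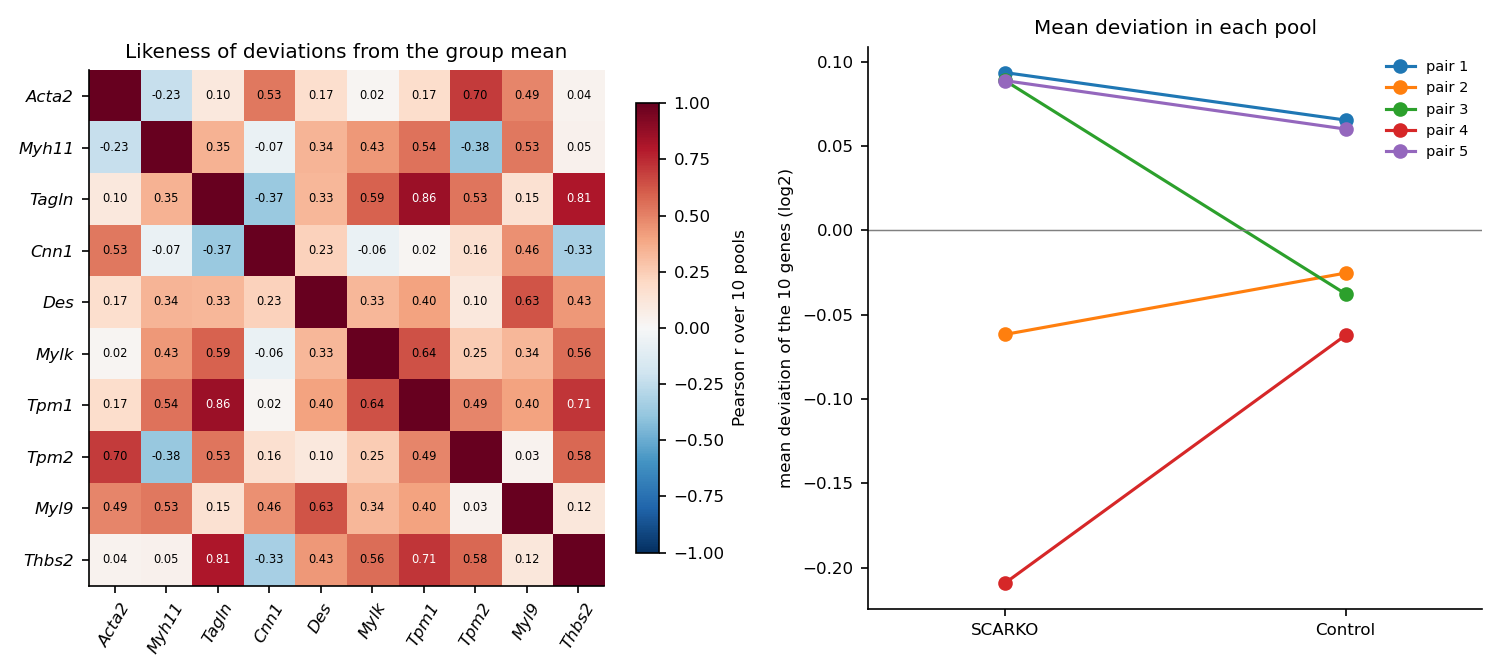
Left, Pearson r between the 10 genes over 10 pools, computed on log2 deviations from the group mean (colour and printed value, -1 to 1). Right, mean log2 deviation of the 10 genes in each pool, SCARKO then control, with lines joining pairs; pair 4 is lowest in both groups, at -0.21 in SCARKO and -0.06 in controls.

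Among the other 7963 kept genes, the 5 whose deviations were most like the mean of the 10 genes were Cald1 (r = 0.92), Smoc2 (r = 0.91), Psmb6 (r = 0.90), Zfp959 (r = 0.90) and Poc5 (r = 0.89), each over 10 pools. These are the highest of many values and carry no test. Cald1 encodes caldesmon, an actin- and myosin-binding protein of smooth muscle, and averaged 440.9 ± 39.1 in SCARKO and 445.5 ± 21.98 in controls (SD, n = 5), with a log2 fold change of -0.02 (SE 0.05). Smoc2 encodes a matricellular calcium-binding protein and averaged 312.2 ± 31.5 in SCARKO and 308.1 ± 18.1 in controls (SD, n = 5). None of the 5 was called, with limma adjusted p from 0.18 to 0.91.

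Genes that work with these markers were read from 6 lists of 107 genes in all, of which 72 were kept. Of the 72, 5 rose, 1 fell and 66 were not called, and 51 had positive log2 fold changes (median 0.06). Called genes made up 2.17% of all kept genes in the upward direction and 3.52% in the downward one. No test compared these lists with the 10 markers.

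In the thin filament list, 13 of 19 genes were kept, 1 rose, none fell and 12 were not called (median log2 fold change 0.01). Cnn3, the acidic calponin that many non-muscle cells make, rose to 1186 ± 73.8 in SCARKO, against 1017 ± 46.1 in controls (SD, n = 5; log2 fold change 0.22, SE 0.03, limma adjusted p = 0.0036), in all 5 pairs. A second of its 6 kept probe sets passed (0.20, adjusted p = 0.031), and the other 4 did not, at -0.02 to 0.14. The call ended with its probe sets averaged (0.12, adjusted p = 0.30), with dim probe sets included (0.054) and without the trend (0.064). Cnn1, the smooth muscle calponin described above, had -0.12 in the same fit. Among myosin regulators, 14 of 25 genes were kept and 0 were called by limma, with 3 at an unadjusted p under 0.05 (median log2 fold change 0.02). These were Ppp1r14a, which encodes the myosin phosphatase inhibitor CPI-17 (log2 fold change 0.27, adjusted p = 0.11, higher in 5 of 5 pairs), and the light chain genes Myl6 (0.29, adjusted p = 0.20) and Myl12b (0.09, adjusted p = 0.23).

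In the list around the serum response factor and its coactivators, 15 of 20 genes were kept and 0 were called by limma, with 7 at an unadjusted p under 0.05 (median log2 fold change 0.07). Klf4, which encodes a repressor of smooth muscle genes, had a log2 fold change of 0.28 (adjusted p = 0.065, higher in 5 of 5 pairs), Mef2c 0.31 (adjusted p = 0.083) and the adhesion plaque gene Vcl, vinculin, -0.19 (adjusted p = 0.084). Calls depended on the setting: without pair 4 limma called Klf4 (adjusted p = 0.049) and Mef2c (0.034), and without pair 2 it called Vcl (-0.26, adjusted p = 0.0062). With probe sets averaged over all pairs it called Mef2c (0.29, adjusted p = 0.029) and Vcl (-0.23, adjusted p = 0.040), while Klf4 had 0.15 (adjusted p = 0.22). Of the partners of desmin, 5 of 8 were kept and 0 were called by limma, with 1 at an unadjusted p under 0.05. Their median log2 fold change was 0.08, and Dmd, Cryab and Dtna had log2 fold changes of 0.17, 0.13 and 0.08 (adjusted p of 0.18, 0.43 and 0.57).

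In the thrombospondin list, 6 of 11 genes were kept, 1 fell, none rose and the median log2 fold change was 0.06. Tgfb1, the growth factor that thrombospondin 1 activates, fell to 35.3 ± 5.57 in SCARKO, against 49.5 ± 10.7 in controls (SD, n = 5; log2 fold change -0.47, SE 0.11, limma adjusted p = 0.031), in 5 of 5 pairs. That call ended without pair 1 (adjusted p = 0.11), 3 (0.067), 4 (0.068) or 5 (0.12), without the littermate block (0.16), with dim probe sets included (0.15) and without the trend (0.059).

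Genes of the signals between Sertoli, myoid and vascular cells held the most calls of these lists, with 4 rises, no falls and 15 uncalled among 19 kept (median log2 fold change 0.16). Edn1, which encodes endothelin-1, a peptide that makes myoid cells contract, rose to 74.3 ± 19.0 in SCARKO, against 42.6 ± 13.2 in controls (SD, n = 5; log2 fold change 0.81, SE 0.08, limma adjusted p = 0.00041). Itih5 rose by 0.25 (adjusted p = 0.010), Smo, the transducer of the hedgehog signal, by 0.23 (adjusted p = 0.045) and Gdnf, a growth factor for spermatogonial stem cells, by 0.39 (adjusted p = 0.0496), each in 5 of 5 pairs. Itih5 lost its call without pair 3 (adjusted p = 0.056), with dim probe sets included (0.092) and without the trend (0.075), and Smo and Gdnf lost theirs without any 1 of the 5 pairs (0.059 to 0.16 and 0.082 to 0.16). Smo and Gdnf also lost theirs without the littermate block (0.096 and 0.14) and with dim probe sets included (0.094 and 0.13). The call of Smo ended without the trend (0.079), and that of Gdnf with quantile normalization (0.057). Gdnf was dim, at 36.5 ± 6.76 in SCARKO and 27.5 ± 2.28 in controls (SD, n = 5).

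**Figure D4:**
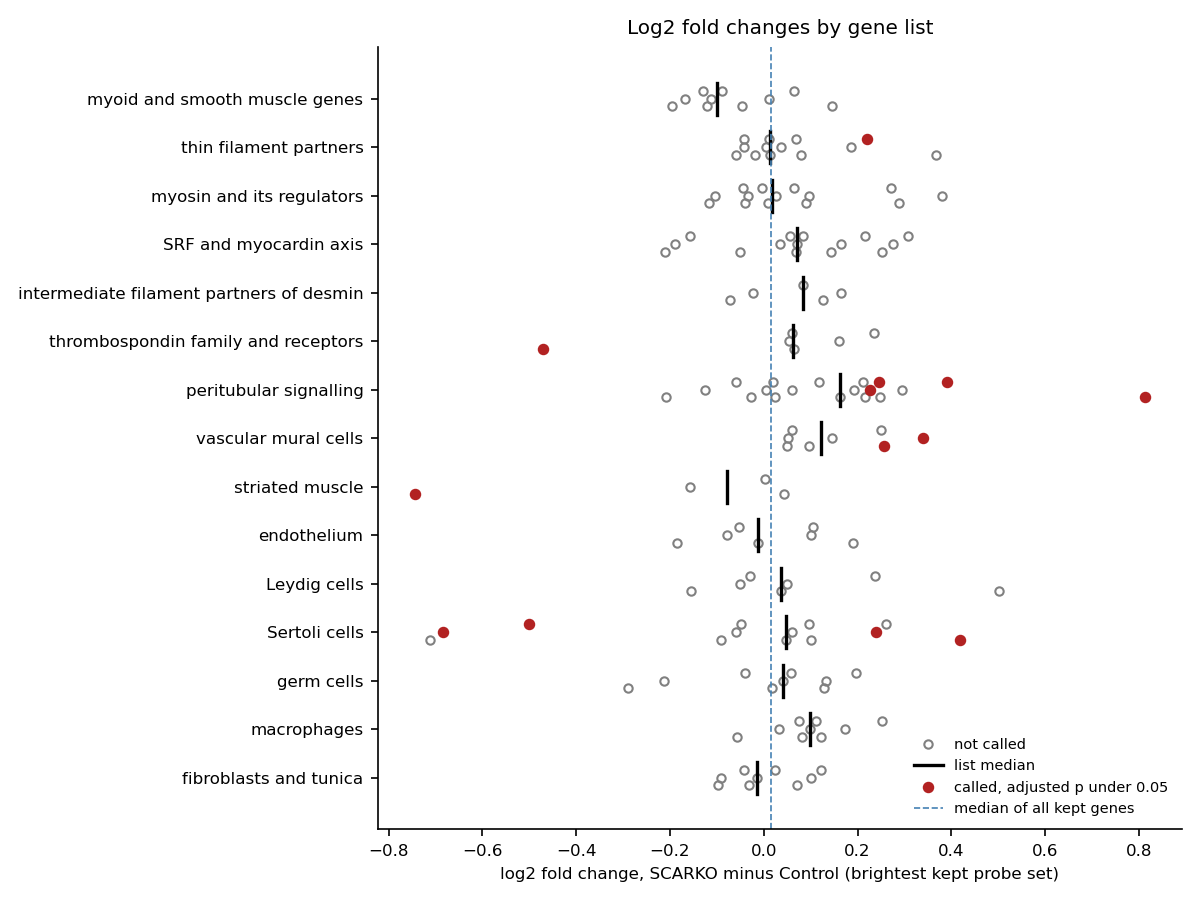
Log2 fold changes (x axis, SCARKO minus control) of the kept genes of each list, 1 point per gene read by its brightest probe set, filled where limma called it and open where it did not, with a bar at the list median and a dashed line at the median of all kept genes, 0.02. The 10 myoid and smooth muscle genes are all open and centre on -0.10. The 8 vascular mural genes all lie above 0, as do 8 of 9 macrophage markers and 4382 of all 7973 kept genes.

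Markers of other cells that share these genes were read beside them. Of 12 vascular mural markers 8 were kept, all with positive log2 fold changes (median 0.12), against 4382 of all 7973 kept genes. Positive values were also found for 8 of 9 kept macrophage markers (median 0.10) and 15 of 19 kept signalling genes of the list above (median 0.16). They were found for 3 of 7 endothelial and 4 of 9 fibroblast markers. In pairs 1 to 5, 1, 3, 0, 4 and 2 of the 8 mural markers were lower in SCARKO. Of the 8, limma called 2 higher, against 2.17% of all kept genes. They were Gucy1b1, a subunit of the nitric oxide receptor (0.34, limma adjusted p = 0.043), and Mcam, an adhesion molecule (0.26, limma adjusted p = 0.044). Both calls ended in several settings, including without pair 1 (adjusted p = 0.070 and 0.089), 3 (0.14 and 0.083), 4 (0.12 and 0.13) or 5 (0.16 and 0.16), and that of Mcam without pair 2 (0.056). A second kept Gucy1b1 probe set was not called (0.15, limma adjusted p = 0.37). With its probe sets averaged, Gucy1b1 had 0.25 and was not called (limma adjusted p = 0.071). The summed signal of the 12 mural markers was 522 to 625.6 in SCARKO and 494.6 to 587 in controls, and that of the 10 myoid and smooth muscle genes was 3965 to 4582 in SCARKO and 4355 to 4825 in controls. These sums follow their brightest genes and are read between groups only, not between lists. Of 20 striated muscle markers with probe sets, 16 were under the filter, Ckm, Myod1 and Myog among them. The summed signal of all 20 was 200.4 to 231.7 in SCARKO and 214.2 to 239.7 in controls. Actn3, an alpha-actinin of fast muscle fibres, was the 1 called and fell by 0.74 on the log2 scale (limma adjusted p = 0.0036, lower in 5 of 5 pairs). The other 3 kept striated markers were not called, with log2 fold changes of -0.16 to 0.04. No marker of these lists was at 0 on every array. The part of vascular or striated muscle in the values of Mylk and Tpm1 was not tested.

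Summed signals of the markers of endothelium, Leydig cells, Sertoli cells, germ cells, macrophages and fibroblasts overlapped between the groups. Sertoli markers summed to 6108 to 6250 in SCARKO and 6073 to 6426 in controls, and Leydig markers to 1349 to 1849 in SCARKO and 1292 to 1716 in controls, so the tissue carried the defining genes of testis. A sum follows its brightest genes, and 1 Sertoli marker alone averaged 2539. Sums that overlap can therefore hold genes that were called. Of 13 kept Sertoli markers limma called 2 higher and 2 lower, against 2.17% and 3.52% of all kept genes. An unadjusted p under 0.05 was found for 7 of the 13, against 21.7% of all genes. It called 0 of 7 endothelial, 7 Leydig, 9 germ cell, 9 macrophage and 9 fibroblast markers, with 1, 2, 3, 2 and 1 of them at an unadjusted p under 0.05. The 7 markers of epididymis and fat with probe sets summed to 252.9 to 299.9 in SCARKO and 172.9 to 247.6 in controls, and of these Lpl alone was above the filter, with a log2 fold change of 0.51 (limma adjusted p = 0.0020). The part of such tissue in the results was not tested.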

How the data were processed

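Whole-testis RNA was measured on 10 Affymetrix arrays, 1 per pool of 3 littermates. The authors deposited signal intensities, 1 per probe set, with a trimmed mean (2% at each end) of 100 on every array. MAS5 is named for 8 arrays per the submitters' processing notes, with no version. Groups and pairs came from the titles, and the protocols in the labels state littermate pairing. Deviations of same-numbered pools from their group means correlated at 0.27, 0.19, 0.19, 0.11 and 0.39 for pairs 1 to 5. The highest r of these pools with a pool of another number in the other group was -0.01, 0.08, 0.11, 0.11 and 0.01. In pair 4 the 2 values were nearly equal, so these correlations do not set its pools apart as a pair.

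Values under 1 were set to 1 and log2 taken. Array controls and the dimmest 40% of the other 22626 probe sets were left out. limma 3.58.1 (R 4.3.3) was fitted with pair as a block and an intensity trend, two-sided, and p-values were adjusted by Benjamini-Hochberg over all 13576 kept. On simulated data of 13576 probe sets for SCARKO minus control, 77% of changes of 0.5 and 99% of changes of 1 (log2) were recovered, and 6.38% of calls were false. Changes as small as those of the 10 genes, -0.20 to 0.15, were not simulated, so their recovery is not known. Symbols were updated through gene IDs. Genes and lists were chosen with earlier results of these data known. The rule named the 10 markers, the called genes of each partner and marker list or else up to 3 with the smallest p, and the 5 most alike genes. The marker lists of non-muscle cells depart from it: they are given by counts and sums, and by Lpl alone. The targeted gene is not reported here. Alternatives were no block, other filters, 16 added, quantile normalization, averaged probe sets, no trend, groups from the descriptions, and each pair left out.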

Additional observations from a re-analysis of the deposited data

How the results depend on the processing

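Fold changes, counts and medians were recomputed under up to 13 alternatives with 1 choice changed at a time. Genes under the stricter filter have no value there, probe sets that are not the brightest have none with probe sets averaged, and likeness, motifs and marker sums were not recomputed. The 15 probe sets of the 10 genes kept both direction and side of the threshold in 159 of 185 recomputed values. The call of the second Mylk probe set was the 1 lost, in 8 of them, and that of Tpm2 was gained without pair 2. The count of called genes among the 10 was 0 in every alternative but for pairs left out (0 to 1). The count of called probe sets, 1 of 15, was 0 with no replicate block, 0 with dim probe sets included, 0 without the intensity trend and 0 with groups from the descriptions, and 0 to 2 with 1 pair left out. Over all probe sets, 704 were called, against 404 without the block, 38 without the filter, 321 without the trend, 0 with groups from the descriptions (611 at an unadjusted p under 0.05) and 304 (without pair 3) to 744 (without pair 2) with 1 pair left out. Without the block limma called 3 of the partner genes in place of 6, and it called 1 with dim probe sets included, 3 when the dimmest 60% were removed, 5 with quantile normalization, 8 with probe sets averaged, 2 without the trend, 0 with groups from the descriptions and 2 to 6 with 1 pair left out. The block moved no other call of the 10 genes. Medians were -0.10 for the 10 genes and 0.06 for the partner genes, and 0.061 and -0.033 with groups from the descriptions. That of the 10 genes was -0.046 over the 7 left when the dimmest 60% were removed, and -0.104 to -0.054 (without pair 4) with 1 pair left out. With dim probe sets included, Edn1 alone kept its call among the called partner, mural and striated muscle genes named.

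With 1 pair left out, log2 fold changes near 0 turned sign for Myl9 (-0.028 to 0.048), Tagln (-0.012 to 0.11) and the second Tpm2 probe set (-0.059 to 0.070), and quantile normalization turned that of Myl9 to -0.013. Groups from the descriptions turned 12 of the 15 probe sets and 18 partner and marker genes, with log2 fold changes of 0.073 for Acta2, 0.14 for Cnn1, 0.20 for Des, 0.053 for Myh11, 0.31, 0.14 and 0.13 for Mylk, -0.097 for Tagln, 0.085 for Thbs2, -0.050 and -0.0999 for Tpm1, 0.070 for Tpm2, -0.13 for Cnn3, -0.053 for Ppp1r14a, -0.31 for Myl6, -0.065 for Myl12b, -0.15 for Klf4, -0.019 for Mef2c, 0.064 for Vcl, -0.12 for Dmd, -0.17 for Cryab, -0.033 for Dtna, 0.19 for Tgfb1, -0.48 for Edn1, -0.19 for Itih5, -0.11 for Smo, -0.20 for Gdnf, -0.14 for Gucy1b1, -0.12 for Mcam and 0.50 for Actn3 (adjusted p of 0.898 or more). That setting exchanges SCARKO and control in pairs 1 to 4 and leaves pair 5 as it is, so most signs turn by the swap itself. By the titles, Edn1, Actn3 and the other called partner, mural and striated muscle genes named moved 1 way in all 5 pairs. Pair 5, where both labels concur, was among them, but these genes were picked by the title grouping. Probe sets called numbered 704 by the titles and 0 by the descriptions. Which label is right was not tested, nor was the cause of the other differences. Signals of Des, Gdnf and the third Mylk probe set lie near the filter, and the number of arrays limits every value.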
